A study of Mus musculus with 36 samples.

Results

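The genes described here are 36 genes that copy and repair DNA, grouped by what their proteins do. All probe sets whose platform annotation gave 1 symbol among the 36 were used. Of the 36 genes, 35 were measured, by 80 probe sets (7 genes by 1 probe set and 28 by several), out of 18193 genes with such a probe set on the array. Chaf1a, a subunit of the histone loader CAF-1, had no probe set of its own. Where a gene had several probe sets, 1 of them, the representative probe set, stands for the gene below.

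Male wild-type (WT), Notch3 knockout (Notch3-/-) and Notch4 knockout (Notch4-/-) mice, 7 to 13 weeks old, breathed filtered air, or 0.3 ppm ozone without a break for 6, 24 or 48 hr. The left lung of each mouse was put on its own array, with 3 mice in each of the 12 genotype and exposure groups. Per the methods, the knockout lines carried the tm1Grid alleles of Notch3 and Notch4, on a mixed background, and the WT mice were of another stock, B6129SF1/J hybrids, so that knockout and line cannot be told apart. Each genotype had a single air group, which the 3 ozone times of that genotype share. The methods ran air exposures in parallel for the same durations, but the labels give no time for the air mice. A difference in chamber time therefore cannot be told apart from ozone. Each value is a log2 difference from the probe set's own median (36 arrays), so that levels compare between mice and not between genes, and whether a tissue's defining markers are absent cannot be read. RNA from whole lung cannot tell more cells in DNA replication from more RNA per cell.

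A cell copies its DNA once in each division. The origin recognition complex, with Cdc6 and Cdt1, loads the ring of Mcm2 to Mcm7 onto DNA, and Cdc45 and the GINS complex turn that ring into the working helicase. Polymerases held by the Pcna clamp then copy both strands, fed by enzymes that make deoxynucleotides, and Fen1 and Lig1 join the pieces of the lagging strand. Most of these genes are transcribed before and during S phase under E2F factors, and most cells of the adult lung are at rest.

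RefSeq (GRCm38.p6) gave a promoter window, from 250 bases before to 50 bases after a transcript start, for 30 of the 36 genes, in 35 windows. Those of Mcm4, Gins1, Gins2, Prim2, Pole and Exo1 were not in the table. Each was searched on both strands for the letters TTTCGCGC, TTTGGCGC, TTTCCCGC and TTTGCCGC, spellings of the E2F binding site. They were found in 12 of the 35 windows (34.3%), against 2.26% of the 32851 windows in the table. CCAAT on either strand was in 60.0% of the 35 windows and 37.4% of all. Of the 12 genes with a match, 8 had one wholly ahead of the start. These stretches are given because the genes' values follow, read 5′ to 3′ on the gene's own strand, with every matched base in capitals and up to 20 bases on either side that lie ahead of the start. In Mcm5 and in the first Mcm6 stretch, 2 matches on opposite strands overlap. In Cdt1, Lig1, Mcm3 and Pole2 the matches lay after the start. A match is a description of the letters and not a bound site.
Uhrf1 (chr17:56304108-56304155, + strand): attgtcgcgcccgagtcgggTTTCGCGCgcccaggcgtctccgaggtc
Cdc6 (chr11:98907993-98908040, + strand): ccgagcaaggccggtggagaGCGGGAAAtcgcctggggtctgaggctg
Mcm5 (chr8:75109336-75109387, + strand): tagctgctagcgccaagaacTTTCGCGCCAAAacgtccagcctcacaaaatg
Mcm6 (chr1:128359784-128359835, - strand): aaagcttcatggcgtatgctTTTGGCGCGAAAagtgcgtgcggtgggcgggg
Mcm6 (chr1:128359725-128359772, - strand): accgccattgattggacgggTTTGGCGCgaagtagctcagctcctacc
Mcm7 (chr5:138172021-138172068, - strand): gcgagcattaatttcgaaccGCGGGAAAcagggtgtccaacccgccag
Pola1 (chrX:93632266-93632313, - strand): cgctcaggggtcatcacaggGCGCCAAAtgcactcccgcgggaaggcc
Rfc3 (chr5:151651209-151651238, - strand): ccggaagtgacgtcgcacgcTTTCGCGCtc
Orc1 (chr4:108579407-108579453, + strand): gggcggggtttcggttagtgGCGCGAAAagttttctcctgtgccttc

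The targeted gene was low in its knockout line, with Notch3 at -2.43 to -1.71 in Notch3-/- mice against -0.37 to 0.88 in WT mice. Of 3 Notch4 probe sets, one was at -4.31 to -1.40 in Notch4-/- mice against -0.38 to 0.58 in WT mice, one was at -0.82 to -0.19 against -0.14 to 0.58, and one, at -0.23 to 0.16 against -0.31 to 0.25, lay within the WT range. In the first, the upper end of the knockout range came from 2 air mice, replicates 1 (-1.97) and 2 (-1.40), with replicate 3 at -3.69. Because those arrays stand apart from their label, the counts that use them are given with and without them. Without them 1 Notch4-/- air mouse is left, which the fit assumes to vary like the mice of the other groups. Those p-values therefore hold no measure of the spread among Notch4-/- air mice. The share of all genes called in the fits without them is not given beside their counts, and the shares given below are those of the fit with all arrays. The mouse left, replicate 3, had the lowest of limma's array weights in its group (0.42, against 4.10 and 0.96 for replicates 1 and 2). These weights are lower for arrays that fit the group means less well. One more array, Notch3-/- air replicate 3, carried a high level of skeletal muscle genes (mean of 8 genes 3.55, against -0.03 and 0.25 in replicates 1 and 2).

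After 48 hr of ozone, the replication genes were high in all 3 genotypes. The mean of the 35 genes lay between 0.34 and 0.81 (median 0.60) in the 9 mice exposed for 48 hr and between -0.49 and 0.28 (median -0.13) in the other 27 mice, so that the 48 hr mice did not overlap the rest. In WT mice the mean was -0.30 ± 0.16 (SD, n = 3) in air, -0.34 ± 0.16 at 6 hr, -0.01 ± 0.21 at 24 hr and 0.53 ± 0.17 at 48 hr. Notch3-/- mice gave -0.28 ± 0.23, -0.23 ± 0.17, -0.01 ± 0.20 and 0.72 ± 0.13 at the same points. In Notch4-/- mice, where air replicates 1 and 2 were at 0.20 and 0.28 and replicate 3 at -0.16, the means were 0.11 ± 0.24, -0.10 ± 0.04, 0.08 ± 0.13 and 0.64 ± 0.09. The WT air mice, at -0.49, -0.22 and -0.20, all lay below the 3 Notch4-/- air mice, and Notch3-/- air replicate 3 (-0.03) lay above the other 2 of its group (-0.34 and -0.48).

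**Figure D1:**
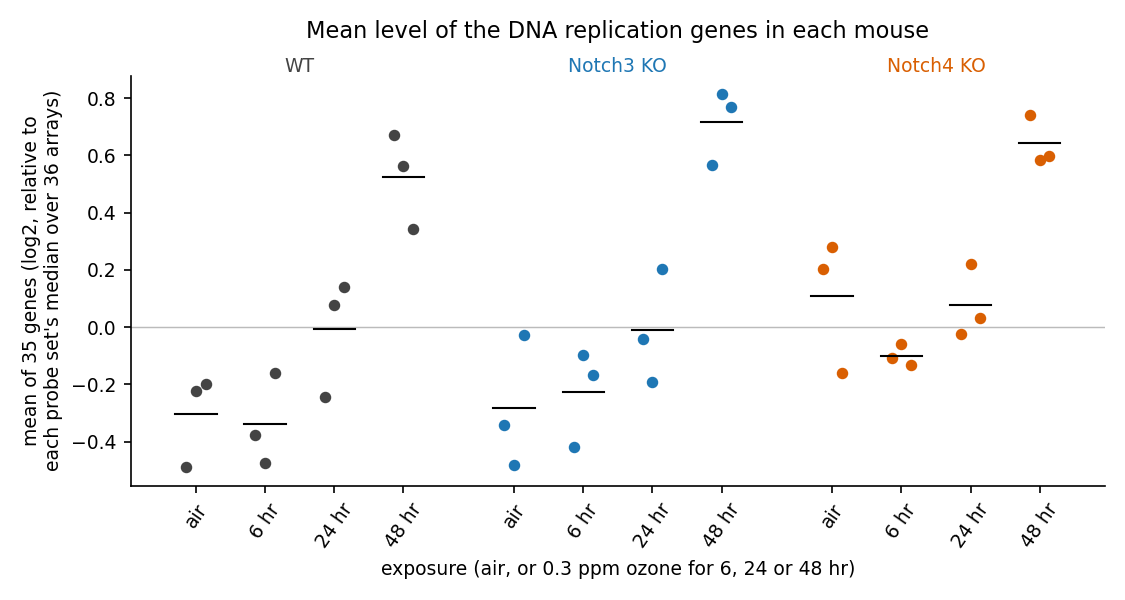
Mean of the 35 DNA replication and repair genes in each mouse (1 point per mouse, bars the group mean of 3 mice), on the vertical axis as log2 relative to each probe set's median, for air and for 0.3 ppm ozone at 6, 24 and 48 hr in each genotype. The 9 mice at 48 hr lie between 0.34 and 0.81, above all 27 others, and 2 of the 3 Notch4-/- air mice lie above 0.

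Averaged over the 3 genotypes (9 mice against 9), 31 of the 35 genes rose at 48 hr relative to air and none fell (limma, Benjamini-Hochberg adjusted p under 0.05), against 8.39% of all 18193 genes called higher. The median change of the 35 was 0.76 log2, and that of all genes was close to 0 (-0.00). With Notch4-/- air replicates 1 and 2 left out, 30 rose, with a median of 0.85. For 10 of the 35 genes (28.6%) each of the 9 mice at 48 hr was above each of the 27 others, against 0.308% of all genes. These were Cdc6, Mcm5, Gins1, Gins2, Rfc4, Rfc5, Prim2, Rrm1, Rrm2 and Tk1.

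**Figure D2:**
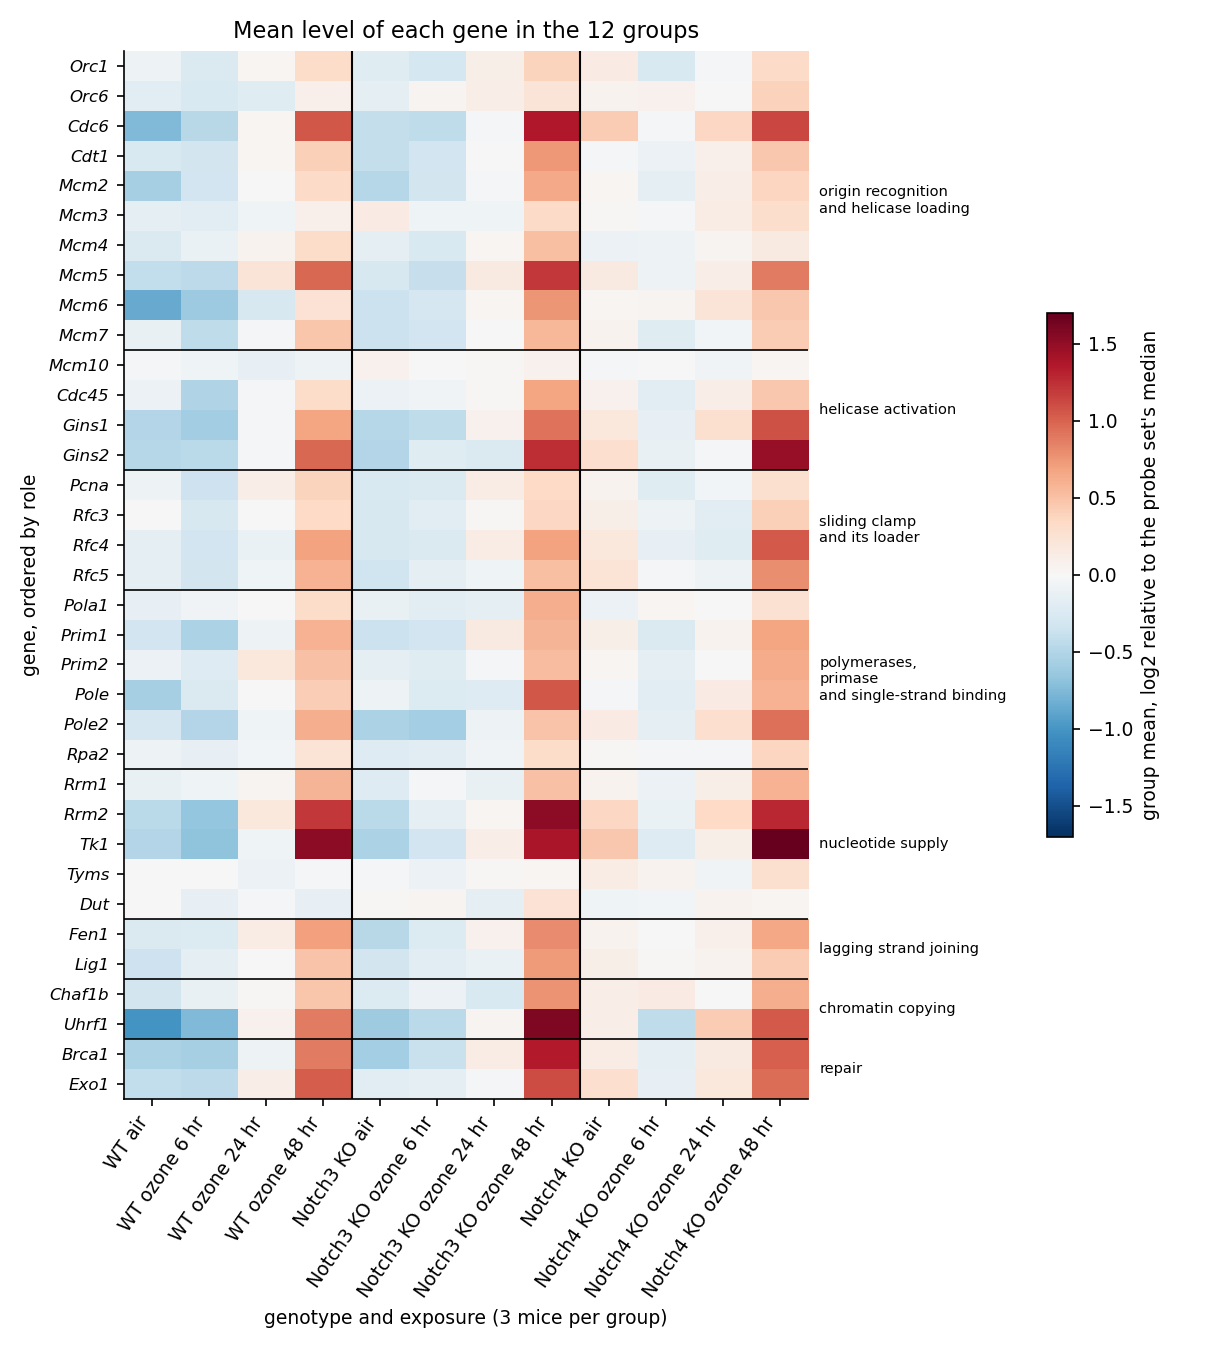
Group mean (3 mice) of each gene in the 12 groups, in colour as log2 relative to the probe set's median (blue low, red high), with genes ordered by role. The 48 hr columns are red for nearly all genes except Mcm10, Tyms and Dut, and the air and 6 hr columns of WT and Notch3-/- mice are the bluest.

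In the first role, recognition of origins and loading of the helicase, 9 of 10 genes rose at 48 hr over the 3 genotypes. Cdc6, which loads the helicase ring, was at -1.08, -0.32 and -0.83 in the WT air mice and at 1.30, 0.99 and 0.89 after 48 hr. It went from -0.37, -0.74 and -0.11 to 0.97, 1.52 and 1.58 in Notch3-/- mice. The Notch4-/- mice had 0.52, 0.62 and 0.17 in air and 1.20, 1.06 and 1.15 at 48 hr. No 48 hr mouse overlapped an air mouse of its genotype, and the Notch4-/- air mice were the highest of the air mice. The change was 1.81 (SE 0.23, adjusted p = 2.6e-05, 3.50-fold) in WT and 1.77 (SE 0.23, adjusted p = 3.5e-05, 3.40-fold) in Notch3-/- mice. The Notch4-/- change of 0.70 (SE 0.23, adjusted p = 0.13) did not pass.

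Mcm5, of the ring itself, was -0.55, -0.48 and -0.21 in WT air and 1.36, 0.83 and 0.76 at 48 hr, a rise of 1.40 (SE 0.24, adjusted p = 0.00094). It rose by 1.48 (SE 0.24, adjusted p = 0.00032) in Notch3-/- mice and differed by 0.72 (SE 0.24, adjusted p = 0.14) in Notch4-/- mice. The genes of the ring did not move by one amount. Over the 3 genotypes the changes ran from 0.23 (SE 0.09, adjusted p = 0.096) for Mcm3 and 0.49 (SE 0.08) for Mcm4 to 0.89 (SE 0.12) for Mcm6 and 1.20 (SE 0.14) for Mcm5, with Mcm7 at 0.64 (SE 0.10) and Mcm2 at 0.79 (SE 0.12) between them. Of the origin recognition complex, Orc1 rose by 0.39 (SE 0.09, adjusted p = 0.0045) and Orc6 by 0.33 (SE 0.08, adjusted p = 0.0048). Orc6 did not pass without Notch4-/- air replicates 1 and 2 (0.26, adjusted p = 0.067). Over the genotypes Cdt1, the partner of Cdc6, rose by 0.77 (SE 0.12, adjusted p = 2.7e-05). In this role the E2F letters were found in the windows of Cdc6, Cdt1, Mcm3, Mcm5, Mcm6, Mcm7 and Orc1, whose changes over the 3 genotypes ran from 0.23 for Mcm3, which did not pass, to 1.43 for Cdc6. Over all roles the median change was 0.75 in the 12 genes with a match (0.23 to 1.67) and 0.72 in the 17 measured genes whose windows had none (-0.00 to 1.73).

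Among genes that activate the helicase, 3 of 4 rose over the 3 genotypes. Gins2 was -0.63, -0.52 and -0.31 in WT air and 1.12, 0.84 and 0.95 at 48 hr. The Notch3-/- mice had -0.65, -0.53 and -0.32, then 1.07, 1.31 and 1.37, and the Notch4-/- mice 0.58, 0.25 and 0.04, then 1.53, 1.78 and 1.11. All 9 mice at 48 hr lay above 0.63, the highest of the others. The rises were 1.46 (SE 0.26, adjusted p = 0.0012) in WT, 1.75 (SE 0.26, adjusted p = 0.00011) in Notch3-/- and 1.18 (SE 0.26, adjusted p = 0.012) in Notch4-/- mice. Its partner Gins1 rose by 1.17 (SE 0.20), 1.41 (SE 0.20) and 0.90 (SE 0.20, adjusted p = 0.015), from 0.21, 0.43 and -0.10 in the Notch4-/- air mice to 1.0, 1.32 and 0.93. Cdc45, which joins GINS on the ring, rose by 0.77 (SE 0.18, adjusted p = 0.016) in Notch3-/- mice and by 0.52 (SE 0.10, adjusted p = 0.0010) over the genotypes. Mcm10 differed by -0.00 (SE 0.09, adjusted p = 0.985) by its representative probe set.

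Of the sliding clamp and its loader, all 4 genes rose over the 3 genotypes. Rfc4, of the loader, was -0.52, 0.01 and 0.04 in WT air and 0.67, 0.65 and 0.75 at 48 hr. It was -0.39, -0.43 and -0.01, then 0.51, 0.90 and 0.64, in Notch3-/- mice, and 0.22, 0.15 and 0.15, then 1.09, 1.26 and 0.76, in Notch4-/- mice. The groups did not overlap in any genotype, and Rfc4 passed in each, with 0.84 (SE 0.18, adjusted p = 0.0073), 0.96 (SE 0.18, adjusted p = 0.0016) and 0.86 (SE 0.18, adjusted p = 0.0088). The Notch4-/- change did not pass without air replicates 1 and 2 (0.88, adjusted p = 0.082). Over the genotypes the other loader genes, Rfc3 and Rfc5, rose by 0.43 (SE 0.09) and 0.72 (SE 0.09). Pcna is the clamp itself. It was -0.24, -0.03 and 0.03 in WT air and 0.52, 0.27 and 0.35 at 48 hr (0.46, SE 0.13, adjusted p = 0.0501, just over the threshold). It rose by 0.59 (SE 0.13, adjusted p = 0.0060) in Notch3-/- mice and by 0.42 (SE 0.07, adjusted p = 0.00014) over the genotypes.

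All 6 genes of the polymerases, primase and single-strand binding rose over the 3 genotypes, by 0.40 to 0.91. Prim1, the catalytic primase subunit, was -0.54, -0.26 and -0.18 in WT air and 0.66, 0.52 and 0.59 at 48 hr. Notch3-/- mice had -0.53, -0.36 and -0.21, then 0.50, 0.66 and 0.59, and Notch4-/- mice 0.10, 0.20 and 0.00, then 0.65, 0.97 and 0.40. It rose in each genotype without overlap, by 0.92 (SE 0.15, adjusted p = 0.00061), 0.95 (SE 0.15, adjusted p = 0.00027) and 0.57 (SE 0.15, adjusted p = 0.045). Its partner Prim2 rose by 0.59, 0.69 and 0.60 (each SE 0.14). In Notch4-/- mice neither passed without air replicates 1 and 2 (Prim1 0.67, adjusted p = 0.13, and Prim2 0.61, adjusted p = 0.13). Pole, the catalytic subunit of the leading-strand polymerase, rose by 0.98 in WT and 1.15 in Notch3-/- mice (each SE 0.21), and Pola1, which extends primers, by 0.74 (SE 0.15, adjusted p = 0.0055) in Notch3-/- mice. Over the genotypes Pole2, the accessory subunit of the Pole enzyme, rose by 0.90 (SE 0.12) and Rpa2, which coats single strands, by 0.40 (SE 0.06).

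The enzymes of nucleotide supply split. Tk1, the thymidine salvage kinase, held the largest change of the 35 genes over the 3 genotypes (1.73, SE 0.17), ahead of Uhrf1 (1.67, SE 0.19), an order that turned without Notch4-/- air replicates 1 and 2 (Tk1 1.97, Uhrf1 2.03). It was -1.05, -0.32 and -0.13 in WT air and 1.48, 1.70 and 1.40 at 48 hr. It was -0.62, -0.93 and -0.07, then 1.11, 1.56 and 1.50, in Notch3-/- mice, and 0.73, 0.91 and -0.26, then 1.93, 1.60 and 1.53, in Notch4-/- mice. Notch4-/- air replicates 1 and 2 were thus the highest of the 27 mice outside the 48 hr groups, and still below all 9 within them. The rises were 2.02 (SE 0.30, adjusted p = 0.00015, 4.07-fold), 1.93 (SE 0.30, adjusted p = 0.00019, 3.82-fold) and 1.23 (SE 0.30, adjusted p = 0.026, 2.34-fold).

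Rrm2, the S-phase subunit of ribonucleotide reductase, was -0.83, -0.29 and -0.24 in WT air and 1.60, 1.02 and 0.97 at 48 hr, a rise of 1.65 (SE 0.32, adjusted p = 0.0027). It was -0.38, -1.07 and 0.07, then 1.46, 1.82 and 1.27, in Notch3-/- mice, a rise of 1.98 (SE 0.32, adjusted p = 0.00028). Notch4-/- values were 0.56, 0.95 and -0.47, then 1.70, 1.01 and 1.14 (0.93, SE 0.32, adjusted p = 0.15). Rrm1, its large subunit, rose in each genotype, by 0.71, 0.71 and 0.52 (each SE 0.12). Tyms and Dut, which make thymidylate and clear dUTP, were at 0.06 (SE 0.08) and 0.06 (SE 0.09) over the genotypes by their representative probe sets and did not pass.

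Both genes that join the lagging strand rose over the 3 genotypes, Fen1 by 0.94 (SE 0.12) and Lig1 by 0.73 (SE 0.09). Fen1, the flap nuclease, was -0.56, -0.24 and 0.06 in WT air and 0.91, 0.69 and 0.48 at 48 hr. Its Notch3-/- values were -0.53, -0.87 and -0.01, then 0.71, 0.94 and 0.76. Its Notch4-/- values were -0.00, 0.33 and -0.16, then 0.92, 0.37 and 0.66, with no overlap but a change of 0.59 (SE 0.20, adjusted p = 0.16) that did not pass.

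Uhrf1, which reads half-methylated DNA behind the fork, was -1.17, -0.76 and -1.13 in WT air and 1.26, 1.09 and 0.29 at 48 hr, a rise of 1.90 (SE 0.33, adjusted p = 0.0011, 3.74-fold). In Notch3-/- mice it was -0.94, -0.77 and -0.09, then 1.34, 1.56 and 1.86, a rise of 2.19 (SE 0.33, adjusted p = 0.00017, 4.56-fold). In Notch4-/- mice it was 0.60, 0.70 and -0.94, then 1.46, 0.67 and 0.99. Here air and 48 hr overlapped, and the change of 0.92 (SE 0.33, adjusted p = 0.18) did not pass. Chaf1b, the measured subunit of CAF-1, rose by 0.78 (SE 0.15) in WT and 0.99 (SE 0.15) in Notch3-/- mice and was at 0.50 (SE 0.15, adjusted p = 0.086) in Notch4-/- mice.

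Both repair genes rose over the 3 genotypes. Brca1, of homologous recombination, was -0.57, -0.37 and -0.68 in WT air and 1.23, 1.0 and 0.40 at 48 hr, a rise of 1.42 (SE 0.27, adjusted p = 0.0023). Its Notch3-/- values were -1.02, -0.81 and 0.11, then 1.19, 1.41 and 1.46, a rise of 1.92 (SE 0.27, adjusted p = 6.7e-05). Its Notch4-/- values were 0.39, 0.48 and -0.49, then 1.22, 0.78 and 1.04 (0.88, SE 0.27, adjusted p = 0.090). Exo1, a nuclease of mismatch repair and end resection, rose by 1.46 in WT and 1.29 in Notch3-/- mice (each SE 0.26).

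**Figure D3:**
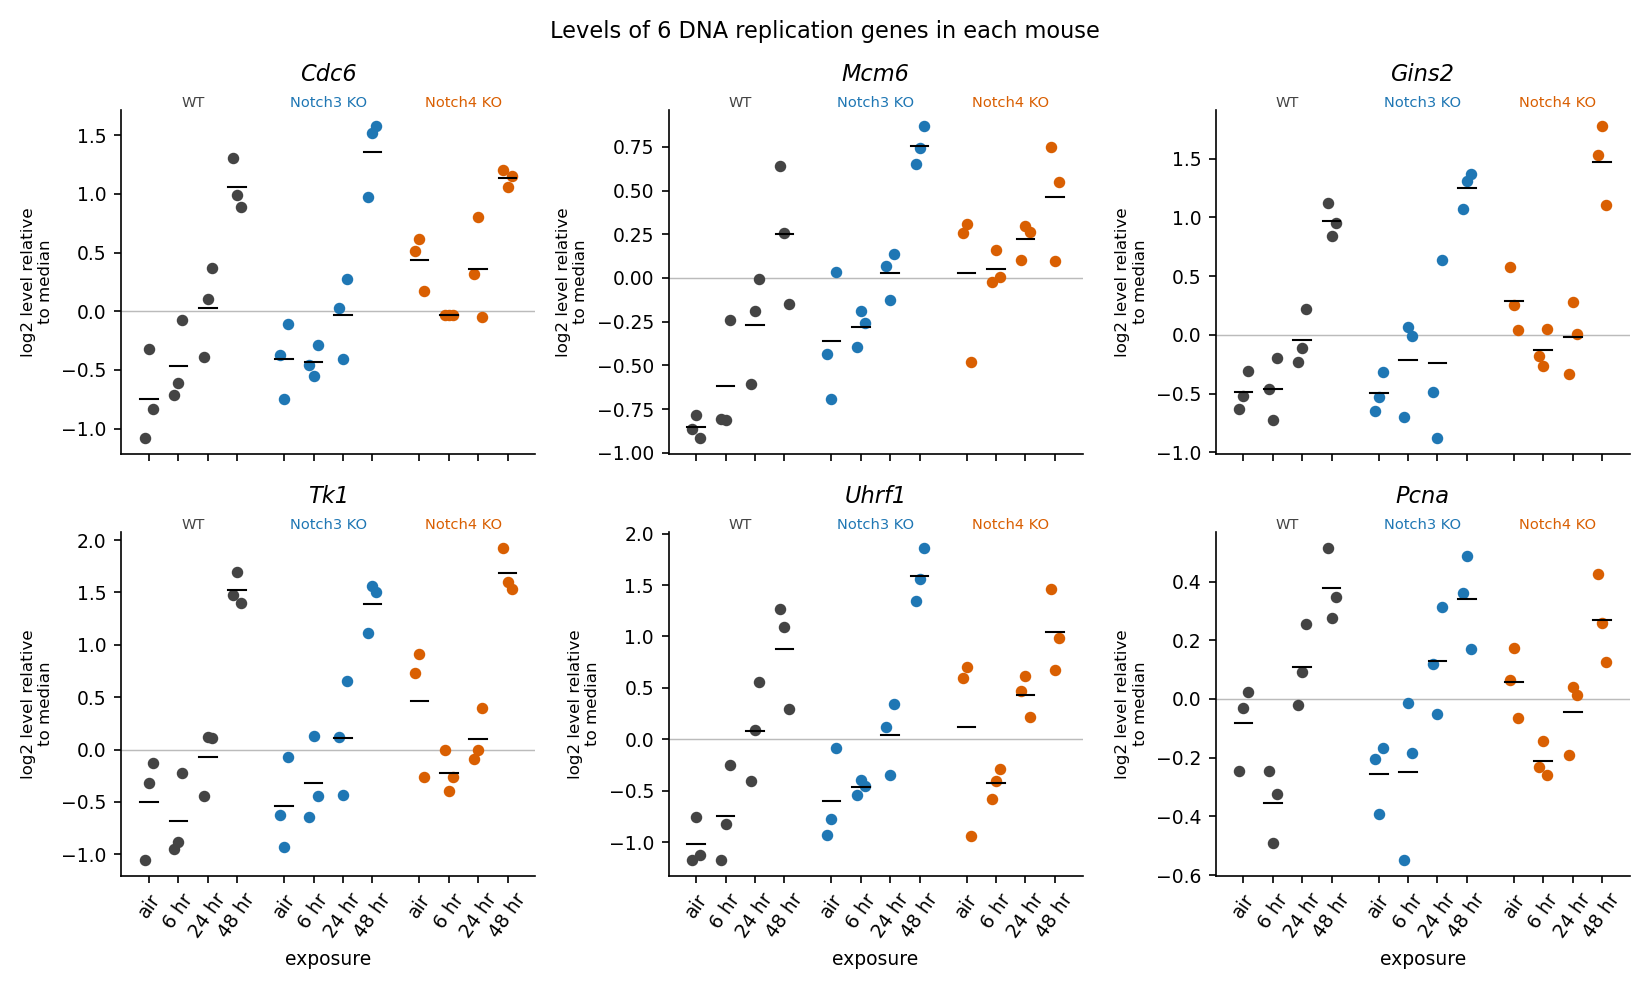
Level of Cdc6, Mcm6, Gins2, Tk1, Uhrf1 and Pcna in each mouse (points) with the group mean of 3 mice (bars), as log2 relative to the probe set's median, for air and 6, 24 and 48 hr of ozone in each genotype, with a scale of its own in each panel. The 48 hr points of Cdc6, Gins2 and Tk1 lie above all other points of their panel, and those of Mcm6, Uhrf1 and Pcna overlap them.

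By genotype, 22 of the 35 genes rose at 48 hr in WT mice (1.84% of all genes called higher), 30 in Notch3-/- mice (2.76%) and 7 in Notch4-/- mice (2.07%), and none fell. With Tukey's test, as in the methods, the counts were 2, 10 and 0 after Benjamini-Hochberg adjustment and 23, 29 and 7 before it, and with only the compared arrays in the fit 10 passed in WT and 0 in Notch4-/- mice. The median changes were 0.78, 0.96 and 0.50, beside -0.02, -0.00 and 0.03 for all genes. Gins1, Gins2, Prim1, Prim2, Rfc4, Rrm1 and Tk1 passed in all 3 genotypes, and 15 more passed in WT and Notch3-/- mice. Cdc45, Cdt1, Mcm7, Orc1, Pcna, Pola1, Rfc3 and Rpa2 passed in Notch3-/- mice, where WT changes of 0.33 to 0.67 did not. By their representative probe sets, Dut, Mcm3, Mcm10, Orc6 and Tyms passed in no genotype. Among all 80 probe sets, 44 rose in WT (1.39% of all probe sets called higher), 51 in Notch3-/- (1.93%) and 10 in Notch4-/- mice (1.48%). These belonged to 26, 33 and 8 genes.

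By representative probe sets, the Notch4-/- count moved with the air and 48 hr mice that were kept. Without air replicates 1 and 2, Prim1, Prim2 and Rfc4 no longer passed. In all 11 genes passed at 48 hr, among them Uhrf1 (1.99, adjusted p = 0.0043), Tk1 (1.95, adjusted p = 0.0049), Rrm2 (1.75, adjusted p = 0.016) and Brca1 (1.50, adjusted p = 0.020), and the median change was 0.75. Without air replicate 3, 0 passed, and without 48 hr replicate 1 or 2, 4 and 2 passed. In WT mice the count fell to 14 without air replicate 1, the lowest of its group in the mean of the 35. In Notch3-/- mice 30 passed also without air replicate 3, the array with high muscle genes. In numbers that use no test, 29 genes in WT (82.9%, against 7.14% of all genes), 30 in Notch3-/- (85.7%, against 12.6%) and 18 in Notch4-/- mice (51.4%, against 10.8%) had all 3 mice at 48 hr above all 3 air mice.

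**Figure D4:**
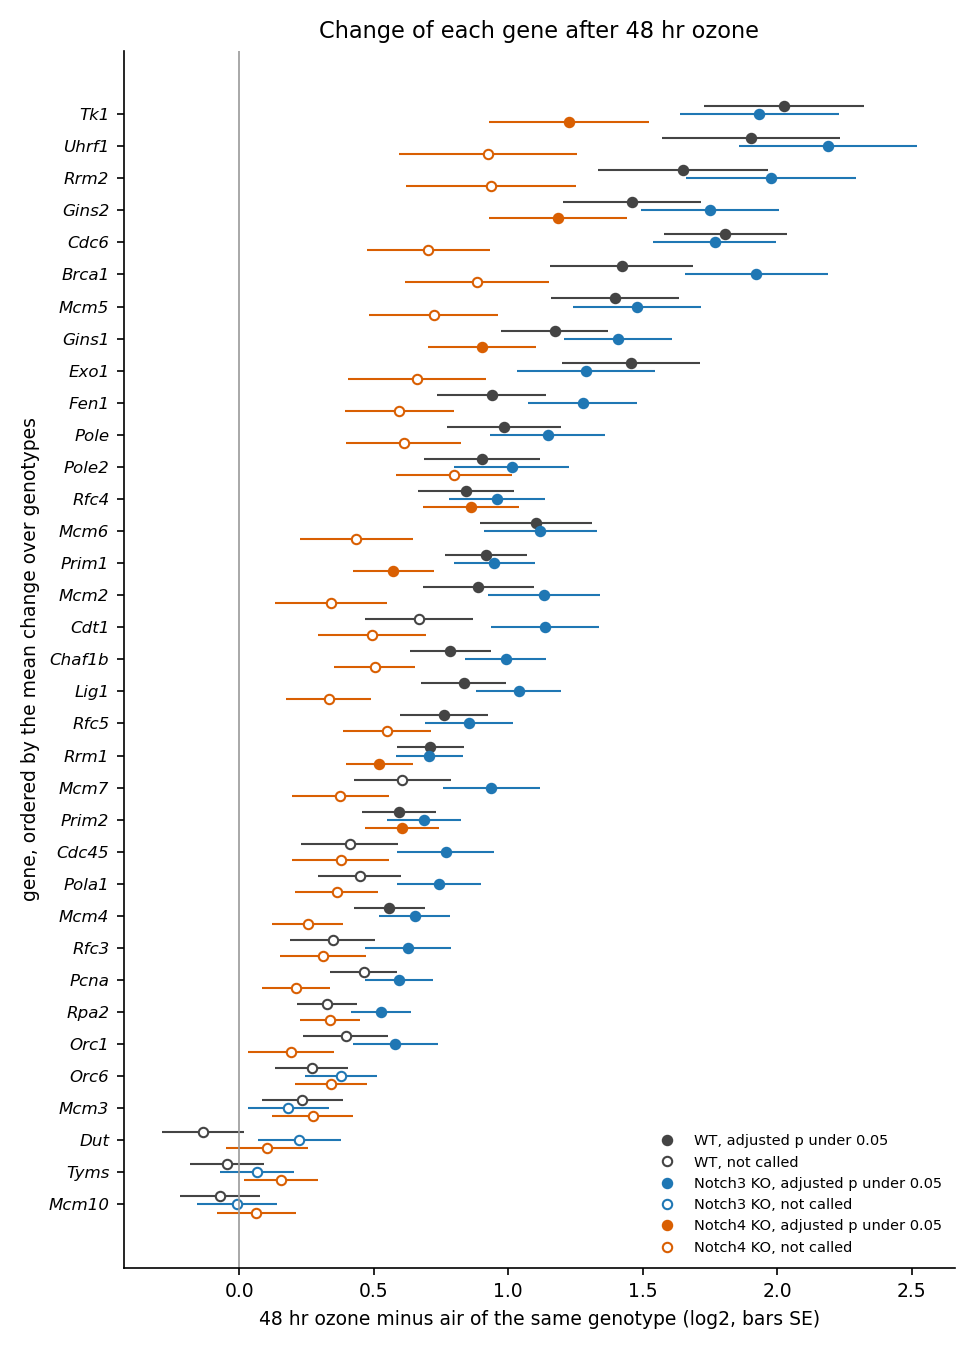
Change of each gene from air to 48 hr ozone on the log2 scale (horizontal axis, bars the SE), in each genotype, with filled points where limma's adjusted p was under 0.05 and genes ordered by their mean change. WT and Notch3-/- points run from near 0 for Mcm10, Tyms and Dut to near 2 for Tk1 and Uhrf1, and most Notch4-/- points lie to the left of the other 2.

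Whether the responses differed by genotype was tested directly, as the knockout's change minus that of WT. No gene of the 35 passed in any of the 6 such tests in limma. At 48 hr the Notch4-/- minus WT differences had 5 genes with an unadjusted p under 0.05 (612 of 18193 genes over the whole array), led by Cdc6 at -1.10 (SE 0.32, adjusted p = 1.0), followed by Mcm6, Lig1, Exo1 and Uhrf1. The median over the 35 was -0.25, beside 0.06 for all genes. The Notch3-/- minus WT differences at 48 hr had 0 genes with an unadjusted p under 0.05 (556 of all 18193) and a median of 0.16 (0.02 for all genes). At 24 hr the counts of unadjusted p under 0.05 were 3 (Notch4-/-, 959 of all 18193) and 1 (Notch3-/-, 1849 of all). At 6 hr they were 1 (567 of all) and 0 (966 of all). Without Notch4-/- air replicates 1 and 2, the Notch4-/- minus WT differences had 1 gene with an unadjusted p under 0.05 at each time and medians of 0.10, -0.01 and 0.04 at 6, 24 and 48 hr, with Cdc6 at -0.84 (SE 0.40, adjusted p = 0.70) at 48 hr. Over all genes, 0.0055%, 0.011% and 0.0055% were called at 6, 24 and 48 hr for Notch3-/- mice, and 0.0%, 0.0% and 0.0055% for Notch4-/- mice.

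At 24 hr the mean of the 35 genes stood between air and 48 hr in WT and Notch3-/- mice, and few changes passed. By their representative probe sets, none of the 35 passed in WT (0.176% of all genes), Notch3-/- (3.16%) or Notch4-/- mice (1.78%) in limma. In the same order, 11, 10 and 1 genes had an unadjusted p under 0.05, beside 1803, 3503 and 3423 of all 18193. Of the 80 probe sets, 1 passed, in Notch3-/- mice (1.38% of all probe sets called higher). In WT mice Cdc6 was at -0.39, 0.11 and 0.37 at 24 hr (0.78 above air, SE 0.23, adjusted p = 0.35) and Uhrf1 at -0.41, 0.09 and 0.56 (1.10, SE 0.33, adjusted p = 0.35). The Uhrf1 values lay above all WT air mice and 1 of the Cdc6 values did not. In WT mice 10 of the 35 genes (28.6%, against 8.57% of all genes) lay above air without overlap. In Notch3-/- mice 4 did (11.4%, against 10.6%). In Notch4-/- mice 0 did (against 13.5%), and 3 lay below air without overlap (8.57%, against 7.68%). In Notch3-/- mice Prim1 came closest, at 0.02, -0.00 and 0.43 (0.51, SE 0.15, adjusted p = 0.061), then Pcna at 0.12, -0.05 and 0.31 (0.38, SE 0.13, adjusted p = 0.092). In Notch4-/- mice the smallest p-values were of 2 clamp loader genes below air, Rfc4 at -0.39, 0.12 and -0.33 (-0.38, SE 0.18, adjusted p = 0.27) and Rfc5 at -0.12, 0.09 and -0.25 (-0.33, SE 0.16, adjusted p = 0.30).

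Over the 3 genotypes Uhrf1 alone passed at 24 hr by its representative probe set, at 0.68 (SE 0.19, adjusted p = 0.032), against 3.88% of all genes called higher. Uhrf1 no longer passed without any 1 of WT air replicate 3, WT 24 hr replicates 2 and 3, and Notch3-/- air replicates 1 and 2. The same held for any 1 of Notch3-/- 24 hr replicates 1 and 3, Notch4-/- air replicate 3 and Notch4-/- 24 hr replicate 2. Among all 80 probe sets 2 passed, of 2 genes (3.19% of all probe sets called higher). Without Notch4-/- air replicates 1 and 2, 9 genes passed (Uhrf1, Rrm2, Mcm2, Mcm4, Mcm6, Gins1, Lig1, Exo1 and Brca1), with Uhrf1 at 1.04 (adjusted p = 0.00064), and in Notch4-/- mice by themselves Uhrf1 (1.38, adjusted p = 0.027) and Pola1 (0.59, adjusted p = 0.042) did. Over the genotypes 6 genes passed without Notch3-/- air replicate 3, 5 without Notch4-/- air replicate 2, 3 without WT 24 hr replicate 1 and 2 without Notch3-/- 24 hr replicate 2 or Notch4-/- air replicate 1. Set against 24 hr directly, 31 of the 35 were higher at 48 hr (4.72% of all genes called higher), with a median of 0.55, led by Tk1 at 1.49 (SE 0.17) and Gins2 at 1.33 (SE 0.15).

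At 6 hr no gene of the 35 passed in any genotype in limma, where the shares over all genes were 0.0% in WT, 0.187% in Notch3-/- and 0.011% in Notch4-/- mice. In WT mice Cdc45 was at -0.60, -0.51 and -0.41, below the air mice at -0.16, -0.13 and -0.01 (-0.41, SE 0.18, adjusted p = 0.59), and Pcna at -0.25, -0.49 and -0.33 (-0.27, SE 0.13, adjusted p = 0.60). In Notch3-/- mice the smallest p-values were those of Rrm1 (0.19, SE 0.12, adjusted p = 0.54) and Orc6 (0.21, SE 0.14, adjusted p = 0.55). In Notch4-/- mice 28 of the 35 changes were negative, beside a median change of -0.01 for all genes. Because the 35 genes moved together across mice, these signs are not separate results. Orc1 was at -0.39 (SE 0.16, adjusted p = 0.38) and Tk1 at -0.68 (SE 0.30, adjusted p = 0.41). The mean of the 35 changed by -0.21 with all air mice and by 0.06 without air replicates 1 and 2. Over the genotypes none passed (2.93% of all genes), with Pcna at -0.18 (SE 0.07, adjusted p = 0.17) and Orc1 at -0.21 (SE 0.09, adjusted p = 0.19).

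In air, 2 of the 35 genes were higher in Notch4-/- than in WT mice (0.225% of all genes called higher), and neither passed without Notch4-/- air replicates 1 and 2. Cdc6 was higher by 1.18 (SE 0.23, adjusted p = 0.0085), from the values given above. Mcm6, of the helicase ring, was at 0.26, 0.31 and -0.48 in Notch4-/- air mice and at -0.86, -0.78 and -0.92 in WT air mice, higher by 0.88 (SE 0.21, adjusted p = 0.049). Replicate 3, the Notch4-/- air mouse with the lowest Notch4 signal, had the lowest Mcm6 and Cdc6 of the 3, and neither gene overlapped the WT mice. Without replicates 1 and 2 the differences were 0.92 (adjusted p = 0.20) for Cdc6 and 0.37 (adjusted p = 0.61) for Mcm6, and 0 passed. The count was 0 without WT air replicate 1 or 3 or Notch4-/- air replicate 1 or 2. It was 1 when WT air replicate 2 was left out and 6 when Notch4-/- air replicate 3 was. The median difference was 0.33 (-0.03 for all genes), and 9 (25.7%, against 4.15% of all genes) had no overlap. In sign, 33 of 35 were positive, in genes that moved together across mice and so are not separate results. The median difference was 0.07 without replicates 1 and 2. With all arrays and all 80 probe sets, 3 probe sets, of 3 genes, were higher in Notch4-/- air mice (0.171% of all probe sets called higher).

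Notch3-/- and WT mice in air gave 0 genes of the 35 (0.588% of all genes called either way) in limma, with a median of -0.01. At an unadjusted p under 0.05 there were 2 (1355 of all 18193), Mcm6 at 0.49 (SE 0.21, adjusted p = 0.60) and Pole at 0.47 (SE 0.21, adjusted p = 0.65). Between the knockout lines in air 0 of the 35 passed (0.0824%). An unadjusted p under 0.05 was found for 21 (2192 of all 18193), led by Cdc6 (0.84 higher in Notch4-/- mice, SE 0.23, adjusted p = 0.16) and Rfc5 (0.58, SE 0.16, adjusted p = 0.18). With Notch4-/- air replicates 1 and 2 left out, 6 had an unadjusted p under 0.05. Averaged over air and the 3 ozone times (12 mice against 12), 5 genes were higher by their representative probe sets in Notch4-/- than in WT mice (3.62% of all genes called higher). They were Mcm6 (0.56, SE 0.10, adjusted p = 0.00073), Cdc6 (0.51, SE 0.11, adjusted p = 0.0058), Gins1 (0.46, SE 0.10, adjusted p = 0.0038), Pole2 (0.36, SE 0.11, adjusted p = 0.045) and Orc6 (0.28, SE 0.07, adjusted p = 0.0099). Without WT 6 hr replicate 3 the count was 9, and without Notch4-/- air replicate 3 it was 11. Without Notch4-/- air replicates 1 and 2, 4 passed, Mcm6 (0.44, adjusted p = 0.014), Cdc6 (0.44, adjusted p = 0.041), Gins1 (0.39, adjusted p = 0.034) and Orc6 (0.33, adjusted p = 0.0064). In Notch3-/- mice only Mcm6 passed (0.41, SE 0.10, adjusted p = 0.015, against 4.39% of all genes called higher). When all 80 probe sets were counted, 12, of 10 genes, were higher in Notch4-/- than in WT mice over the 4 exposures (2.87% of all probe sets called higher).

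Probe sets of a gene did not always agree. Of all 80 probe sets, 61 passed at 48 hr over the 3 genotypes (6.72% of all probe sets called higher) and none fell, and each of the 35 genes had at least 1 that passed. For the 4 genes whose representative did not pass, others did, namely for Mcm3 4 of 4 others (0.43 to 0.76), for Mcm10 1 of 2 (0.65, SE 0.10), for Dut the other one (0.57, SE 0.10) and for Tyms 1 of 3 (0.31, SE 0.10, adjusted p = 0.041). In the other direction, 3 further Brca1 probe sets were at 0.34, 0.31 and 0.06, and a second Cdc45 probe set was at -0.09 (SE 0.08), where the representatives were at 1.41 and 0.52. Which transcripts these probe sets read was not tested.

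The genes moved together across mice. The median Pearson r between 2 of the 35 was 0.80 over the 36 arrays, which share the exposure groups, and 0.48 for deviations from the group means, where 543 of 595 pairs were above 0. Rrm2 (r = 0.97), Brca1, Tk1 and Mcm5 (each r = 0.96) followed the mean of the other members most closely, and Mcm10 (0.12), Tyms (0.23) and Dut (0.27) least. Of genes outside the 35, the 5 with the highest r to the mean of the 35 over the 36 arrays were Asf1b, a histone chaperone (0.97), Pbk, a mitotic kinase (0.97), Fignl1, an ATPase (0.97), Ccna2, cyclin A2 (0.97), and Cks1b, a subunit of cyclin-dependent kinases (0.97). At 48 hr over the genotypes these 5 rose by 1.12 to 2.40. They were picked for following a mean that was highest at 48 hr, so that a rise then was built into the choice.

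Other genes of the cell cycle rose beside these. Over all genes, 8.39% were called higher and 4.34% lower at 48 hr over the 3 genotypes. Of 39 further replication genes, 18 rose and none fell at 48 hr over the 3 genotypes (median 0.19). They included Asf1b (1.12, SE 0.11), Wdhd1 (0.63, SE 0.08), which ties polymerase to helicase, and Mcm8 (0.68, SE 0.10). Of 22 further recombination and repair genes, 14 rose and none fell (median 0.29), among them Rad51ap1 (1.42, SE 0.13), the Bloom helicase Blm (0.65, SE 0.08) and the uracil glycosylase Ung (0.82, SE 0.11). Of 28 genes of E2F factors, RB proteins and G1/S cyclins, 9 rose, among them Ccna2 (1.91, SE 0.19), Ccne2 (1.21, SE 0.13) and the repressor E2f8 (1.10, SE 0.14), and 1 fell, Cdk6 (-0.35, SE 0.09). Of 19 mitosis genes, 16 rose and none fell (median 1.34). They included the kinesin Kif20a (1.89, SE 0.17), Aurora kinase B (Aurkb, 1.32, SE 0.12) and cyclin B2 (Ccnb2, 1.80, SE 0.17), with Pbk higher at 2.40 (SE 0.25). By genotype, the 4 lists had 5, 4, 4 and 16 genes higher in WT (1.84% of all genes called higher), 8, 6, 7 and 16 in Notch3-/- (2.76%) and 3, 4, 2 and 6 in Notch4-/- mice (2.07%). In air, 4 mitosis genes (Cdk1, Cdc20, Bub1 and Pbk), Rad51ap1 and Ccne2 were higher in Notch4-/- than in WT mice (0.225% of all genes called higher) and no further replication gene was. Without Notch4-/- air replicates 1 and 2, none of these 6 passed in air (0.39 to 0.75), and the 4 lists had 3, 2, 5 and 13 genes higher at 48 hr in Notch4-/- mice. Over the genotypes they then had 14, 13, 8 and 16 higher at 48 hr, with Rrm2b lower (-0.25, adjusted p = 0.040) and Cdk6 (-0.28, adjusted p = 0.083) no longer past the threshold.

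Markers of lung and blood cells were set beside these results. Of 7 macrophage genes, 5 rose at 48 hr over the 3 genotypes, with Marco at 0.92 (SE 0.12) and Cd68 at 0.75 (SE 0.12), and their mean was 0.19 to 0.39 in WT mice at 48 hr (-0.42 to 0.16 in air). It was 0.28 to 0.56 (-0.20 to 0.02) in Notch3-/- and 0.16 to 0.35 (-0.31 to 0.09) in Notch4-/- mice. In air, 0 of the 7 differed between Notch4-/- and WT mice past the threshold. Of 6 endothelial genes, 2 fell (Cldn5 by 0.25 and Pecam1 by 0.42 on the log2 scale). Of 9 thymocyte genes 2 fell, and of 6 airway epithelial genes 1 fell. Over all genes, 8.39% were called higher and 4.34% lower at 48 hr over the 3 genotypes. When Notch4-/- air replicates 1 and 2 were left out, 4 macrophage genes rose, and 1 endothelial, 3 thymocyte, 0 airway epithelial and 1 T cell gene fell. With all arrays none passed of 6 B cell, 5 T cell, 5 erythroid, 10 neutrophil, 5 alveolar type 2 and 8 skeletal muscle genes. The part of a changed cell make-up in the rise of the replication genes was not tested.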

How the data were processed

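Total RNA of 36 left lungs, 1 per mouse, was measured on Affymetrix whole-genome mouse arrays. The authors summarised the arrays by RMA (background correction, quantile normalization, log2) in GeneSpring GX and deposited log2 values, which proved to be centred to a median of 0 in every probe set (largest absolute median 5e-07). Here 45037 probe sets, without 64 controls, were fitted in limma 3.58.1 (R 4.3.3) with 12 group means, and Benjamini-Hochberg adjustment was made within each of 24 comparisons at a threshold of 0.05. The mice are individual animals, and the number of arrays limits precision (median SE 0.137 log2 for a group against air). The representative probe set was the one with the most specific suffix, then the lowest number. Members, lists and rules were chosen with earlier results of these data known. Members named with values were those with the largest changes among those that passed, or the smallest p-values where none did, and 1 or more per role. Genes named from the lists of further cell cycle genes were not ranked by the size of their change. Marker lists were of thymocytes, B cells, T cells, erythroid cells, macrophages, neutrophils, alveolar type 2, airway epithelial and endothelial cells and skeletal muscle. Steps were tested on simulated data. Alternatives were the methods' ANOVA with Tukey's test, normalization, array weights, replicate block, arrays in the fit, probe set choice, adjustment and left-out arrays.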

Additional observations from a re-analysis of the deposited data

How the results depend on the processing

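Single genes kept their direction in all 1913 alternative values that were compared (1731 on the same side of the threshold, 182 no longer past it). These did not cover each of the 35 genes in each comparison, so a change of sign in the genes left out is not excluded. Of 372 alternative values for differences of the mean, 9 moved by more than the spread between replicates (SD 0.169). The Notch4-/- change of the mean at 6 hr changed sign without air replicates 1 and 2. The counts of the 35 genes that passed moved as follows. With the methods' ANOVA and Tukey's test, 2 passed at 48 hr in WT, 10 in Notch3-/- and 0 in Notch4-/- mice, with 0 at 24 hr over the genotypes and 0 between Notch4-/- and WT air mice. With only the compared arrays in the fit, the counts were 10 (WT, 48 hr), 0 (Notch4-/-, 48 hr), 0 (24 hr over the genotypes) and 0 (Notch4-/- air). Quantile normalization once more gave 0 (Notch4-/-, 48 hr), 0 (24 hr over the genotypes) and 2 (Notch3-/- over 4 exposures). Array weights gave 3 (WT, 24 hr), 1 (Notch3-/-, 24 hr), 3 (Notch4-/-, 6 hr), 12 (Notch4-/-, 48 hr), 2 and 7 (6 and 24 hr over the genotypes), 15 (Notch4-/- against WT in air), 21 (against Notch3-/- in air), and 2 and 15 (Notch3-/- and Notch4-/- over 4 exposures). The replicate number as a block gave 1 (Notch3-/-, 24 hr) and 1 (Notch4-/- air). Correlations of deviations between same-numbered mice ran from -0.505 to 0.617 (median 0.0744, against -0.05 for different numbers), and 22 of 36 arrays correlated best with their own number, a hint of shared structure in the data. Since the labels tie the numbers to no litter, batch or day and not every pair was correlated, the fit without the block was kept. The mean of a gene's probe sets gave 1 (Notch3-/-, 24 hr) and 2 (24 hr over the genotypes), leaving out unnamed and cross-hybridizing probe sets gave 2 at 24 hr, and adjustment over all comparisons together gave 0 there. Without Notch4-/- air replicates 1 and 2 the counts were 11 (Notch4-/-, 48 hr), 2 (Notch4-/-, 24 hr), 9 (24 hr over the genotypes) and 0 (Notch4-/- air). Leaving out 1 mouse at a time gave 14 to 22 at 48 hr in WT, 23 to 30 in Notch3-/- and 0 to 8 in Notch4-/- mice, 31 to 32 over the genotypes and 26 to 32 against 24 hr. It gave 0 to 6 at 24 hr over the genotypes, 0 to 1 at 24 hr in Notch3-/- mice, 0 to 6 for Notch4-/- against WT air mice, 0 to 1 against Notch3-/- air mice, and 4 to 11 for Notch4-/- mice over 4 exposures. The causes of these moves were not tested. The share of all genes called under each alternative is not set beside these counts, so they cannot be read against it. With 3 mice per group and a median SE of 0.193 log2 for a difference in response between genotypes, the size of such a difference was poorly bounded, and centred values do not show which probe sets were near background.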
